A study of Mus musculus with 16 samples.

Results

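Some stretches of the mouse genome held many sites at which peaks of RUNX1, MyoD and c-Jun in proliferating myoblasts were joined by overlap. They were found by merging overlapping peaks (1 bp or more) of the 3 factors on chromosomes 1 to 19 of build mm9. Merged regions holding all 3 factors, called three-factor regions below, were assigned by their centres to fixed windows of 100 kb. A window with 5 or more was taken as a hub. This gave 228 hubs among 16302 windows with at least 1 peak of the 3 factors and among 6603 windows with at least 1 three-factor region (3.45% of the latter). The hubs were chosen by the count of three-factor regions in the RUNX1, MyoD and c-Jun lists, so that count, the overlap of the 3 lists and the crowding of their peaks are given as descriptions. The word hub stands for this density alone, since contacts between the sites were not measured.

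The study mapped binding by chromatin immunoprecipitation and sequencing (ChIP-seq) in primary muscle cells of wild-type C57BL/6 mice aged 2 to 3 weeks. Satellite cells of the gastrocnemius were cultured for 3 days as proliferating myoblasts for RUNX1, MyoD and c-Jun, and MyoG was precipitated from myotubes on day 4, after 24 hours in differentiation medium. The 16 samples comprised 2 ChIP libraries of each factor and 2 of its control. Non-immune rabbit serum was the control for RUNX1, rabbit IgG for c-Jun, and mouse IgG for MyoD and for MyoG. The files held 1 peak list per factor with no replicate column, so every value below comes from 1 list, and spreads are over windows or over the 19 chromosomes, not over cultures. No test between conditions was possible, and no p-value is given. Depth is unknown because the lists hold no read counts, and the control libraries have no values here.

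RUNX1 binds DNA through its Runt domain with the partner CBFB and is known in blood formation and in muscle under stress. MyoD is the basic helix-loop-helix factor that commits cells to the muscle lineage and binds short E-box sequences. The factor c-Jun is a subunit of AP-1, a basic leucine zipper dimer linked to growth signals. MyoG, also called myogenin, is a helix-loop-helix factor related to MyoD that acts as myoblasts leave the cell cycle and fuse into myotubes. Groups of closely spaced regulatory sites bound by several factors are common near genes that mark a cell's identity. The MyoG list was not used to choose the hubs and is the independent readout here. It was assigned to MyoG by elimination, because its name is an abbreviation.

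The hubs held a larger part of the three-factor regions than of the windows, a contrast that the rule builds in. Of 11449 three-factor regions, 1276 (11.1%) lay in the hubs, which made up 1.4% of the windows with a myoblast peak and held 5.43% of all peaks of the 3 factors. Most windows with such regions had few: 3828 held 1, 1587 held 2, 669 held 3 and 291 held 4. Just inside the threshold, 137 windows held 5, then 61 held 6, 22 held 7, 3 held 8, 4 held 9 and 1 held 11. Windows just below and just above the threshold were close in crowding, with 24.7 ± 5.45 (SD, n = 291) peaks of the 3 factors at 4 regions and 28.3 ± 4.86 (SD, n = 137) at 5. The threshold thus falls in a continuous series of counts.

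Hubs occurred on each of the 19 chromosomes. The number per chromosome ran from 4 on chromosome 3 to 22 on chromosome 8, with a median of 11. Relative to windows with a myoblast peak, the share was 0.407% on chromosome 3 and 2.62% on chromosome 8. Chromosome 8 also had the highest share of its three-factor regions inside hubs, 18.6%, against 4.24% on chromosome 3 and a median of 11.1%. Chromosome 13 followed with 15.6% and chromosome 4 with 14.02%.

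A typical hub held about equal numbers of peaks of the 3 factors. The means were 10.5 ± 2.72 (SD, n = 228 hubs) RUNX1 peaks, 10.97 ± 2.67 MyoD peaks and 9.23 ± 2.30 c-Jun peaks. MyoD was the most numerous factor in 96 hubs, RUNX1 in 59 and c-Jun in 26, and the top count was tied in 47. The whole lists had the same order, with 45201 MyoD, 42226 RUNX1 and 41480 c-Jun peaks on the chromosomes used. Leads were not counted in other windows, and the part of list length in them was not tested. After merging, a hub held 14.5 ± 3.13 regions, with a range from 7 to 23. Of the merged regions in hubs, 38.7% held all 3 factors, against 14% of all merged regions and 13.0% of those outside hubs, a contrast that the rule builds in. All 3 factors were in at least 50% of the regions of 41 hubs. Each hub had at least 1 one-factor region, and 13 hubs had no two-factor region. These counts were not made in other windows.

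Crowding alone did not make a window a hub. Among windows with 20 to 24 peaks of the 3 factors, 35 of 675 (5.19%) were hubs. The share was 20.5% at 25 to 29 peaks, 49.3% at 30 to 34, 73.5% at 35 to 39 and 85.7% at 40 or more. Hubs were therefore compared with windows that had the same total number of peaks of the 3 factors but under 5 three-factor regions. There were 1473 such comparison windows, and 214 hubs had at least 1. The other 14 hubs, with totals from 40 to 55, had none. Comparison values below are means within each total, weighted by the number of hubs with that total.

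**Figure D1:**
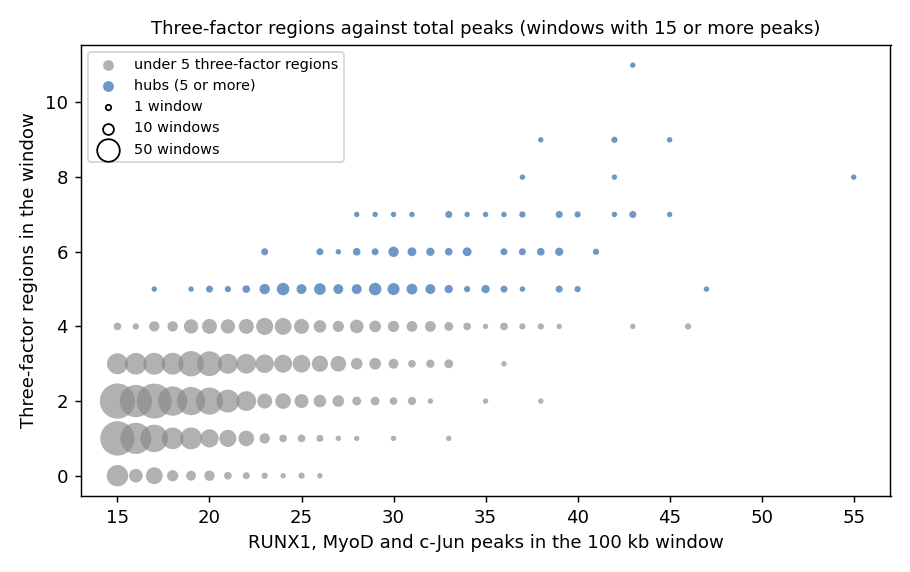
Three-factor regions per 100 kb window (vertical axis, count) against the total number of peaks of the 3 factors in it (horizontal axis, count), for windows with 15 or more peaks. The area of a point grows with the number of windows; blue points are the hubs (5 or more regions), which begin at a total of 17 peaks and overlap the grey windows along the horizontal axis.

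At the same total, the peaks of a hub were stacked on fewer sites. Hubs had 14.2 ± 2.92 (SD, n = 214) merged regions and equal-count windows 16.3, and hubs had fewer on 19 of 19 chromosomes. Hubs held 5.50 ± 0.803 three-factor regions against 3.23. In exchange they held 3.16 two-factor regions against 5.61, and 5.50 one-factor regions against 7.43. Among two-factor regions, the pairs were lowered by similar factors: RUNX1 with MyoD stood at 1.31 against 2.23 per window, MyoD with c-Jun at 0.785 against 1.36, and RUNX1 with c-Jun at 1.06 against 2.02. The makeup by factor was close, with 10.2 RUNX1, 10.7 MyoD and 9.03 c-Jun peaks in hubs and 10.7, 10.6 and 8.67 in equal-count windows. All of these counts follow from the overlaps that chose the hubs.

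Within a hub the three-factor regions were spread over much of the window and stood close together in places. Their centres spanned a median of 65.6 kb, from 17.6 to 95.9 kb. Neighbouring centres lay a median of 10.2 kb apart (quartiles 4.82 and 20.03 kb, n = 1048 gaps), and 277 gaps (26.4%) were under 5 kb. In windows with 4 three-factor regions the median gap was 13.7 kb, which more regions in a window of fixed length shorten by construction. The most compact hub, chr2:26100001-26200000, held its 5 regions within 17.6 kb with no gap above 6.67 kb. This hub was picked for its span with the values known.

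The hub with the most three-factor regions, 11, was chr2:60500001-60600000. It had 14 RUNX1, 18 MyoD and 11 c-Jun peaks in 16 merged regions, and each of its 11 three-factor regions met a MyoG peak. Of these 11, 10 lay between 27.3 and 61.0 kb from the start of the window, and the last stood apart at 86.5 kb.

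**Figure D2:**
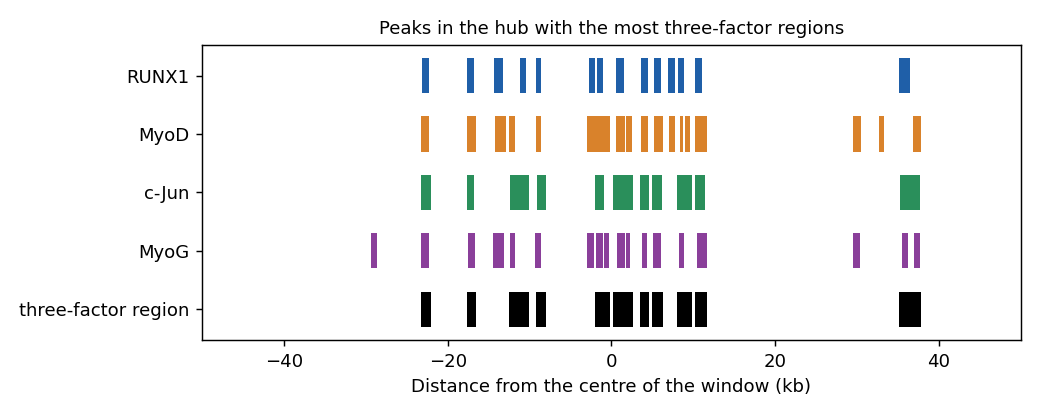
Peaks of RUNX1, MyoD, c-Jun (myoblasts) and MyoG (myotubes) and the 11 three-factor regions in the hub on chromosome 2, by distance from the centre of the 100 kb window in kb (bars drawn to scale). Most bars of all tracks fall on the same positions in the middle of the window, and MyoG bars stand over each three-factor region.

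Binding strength varied widely inside this hub. Strength is read here from the score that the authors' peak caller wrote for each peak, which runs from 50.01 to 3233 and ranks peaks within 1 list only; many peaks sit at exactly 3100. At chr2:60526675-60527930 the scores were 3016 for RUNX1, 3100 for MyoD, 659 for c-Jun and 2323 for MyoG. Further along, at chr2:60540716-60542057, they were 68.0, 54.2, 117 and 360, where the median scores of RUNX1, MyoD and c-Jun peaks outside hubs were 175, 173 and 169. At chr2:60547988-60549863 MyoD stood at 3100 and MyoG at 2442, while RUNX1 and c-Jun were weak at 53.5 and 79.5. In percentiles of each list, MyoD stood highest at 6 of the 11 regions, c-Jun at 4 and RUNX1 at 1. The region at chr2:60537429-60539862 had c-Jun at percentile 94.1, RUNX1 at 20.8 and MyoD at 5.77. Its RUNX1 and MyoD peaks did not overlap each other and were joined only through the c-Jun peak. The same held at chr2:60585206-60587794, so neither region had a base covered by all 3 factors.

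Another 4 hubs held 9 three-factor regions each. The hub chr16:92900001-93000000 had 12 RUNX1, 17 MyoD and 13 c-Jun peaks, with 21 MyoG peaks. Its regions included one led by RUNX1, chr16:92974921-92976144, with scores of 3100 for RUNX1, 1993 for MyoD and 236 for c-Jun. A region led by c-Jun, chr16:92951337-92953818, had 251 for RUNX1, 1013 for MyoD and 3100 for c-Jun. The centres of these regions stood at 75.5 and 52.6 kb from the start of the window, and the leading factor stood at percentile 99.4 of its list in the first and 99.6 in the second. The windows beside this hub held 6 further three-factor regions.

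The other 3 hubs of 9 differed in the number of sites around the shared ones. The hub chr4:154500001-154600000 was rich in sites of 1 factor, with 9 one-factor and 4 two-factor regions. The hub chr8:13600001-13700000 had 5 and 1, and chr17:26700001-26800000 had 6 and 0. In each of the 5 hubs with 9 or 11 three-factor regions, a MyoG peak met every one. The last region of chr17:26700001-26800000, at chr17:26795319-26797437, was high in 3 lists, with 2354 for MyoD, 2459 for c-Jun and 2785 for MyoG, and lower for RUNX1 at 357.

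In 3 hubs there were 8 three-factor regions. The hub chr11:117100001-117200000 was the most crowded of all, with 55 peaks of the 3 factors (19 of RUNX1, 20 of MyoD, 16 of c-Jun) and 25 of MyoG. The hub chr12:106200001-106300000 was the most compact of the 3, with 8 regions in 35.7 kb, and its neighbouring windows held 1 three-factor region. The hub chr16:24400001-24500000 had the lowest median scores of the 3 for RUNX1 (233) and MyoD (110), with 420 for c-Jun. In it and in the hub on chromosome 11, 7 of 8 three-factor regions met MyoG.

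At the other end, some hubs had few peaks besides the shared ones. The hub chr4:123200001-123300000 had the lowest total, 17, in 7 merged regions, of which 5 held all 3 factors. It held 7 MyoG peaks, against a mean of 8.30 over 281 equal-count windows. The hubs chr4:147700001-147800000 and chr2:128000001-128100000 followed with totals of 19 and 20 and held 8 MyoG peaks each, against equal-count means of 9.08 and 9.63. Each of these 3 hubs lay below its equal-count mean, by less than 2 peaks.

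Nearly all three-factor regions of hubs were MyoG sites in myotubes. A MyoG peak met 1221 of 1276 (95.7%, SD over 19 chromosomes 2.83), against 91.9% of all three-factor regions and 51.7% of all merged regions. Outside hubs the share was 91.4% (SD 1.49), and hubs lay above it on 16 of 19 chromosomes, with a difference of 4.30 percentage points (SD 3.09). In 178 hubs (78.1%) every three-factor region met MyoG, in 45 hubs 1 did not, and in 5 hubs 2 or more did not. The same count was not made in equal-count windows. With 95.7% of single regions met, most hubs would be complete, so this count is not a separate result.

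Beside windows of equal count, the share at three-factor regions was not higher in hubs. In equal-count windows it was 96.5%, against 95.7% in the 214 hubs compared with them, and hubs lay above on 6 of 19 chromosomes. The difference of -0.815 percentage points was smaller than its SD over chromosomes, 3.45. Of the single hubs, 109 lay above the share of their equal-count windows and 47 below, and the rest were equal to it. A hub has only 5 to 11 three-factor regions, so 1 region without MyoG puts it well below a share near 96.5%. With MyoG at every region it stands at 100%. These counts of single hubs therefore do not show a higher share in hubs. Over all merged regions, of any class, MyoG met 72.4% in hubs and 66.4% in equal-count windows, a difference of 6.06 percentage points (SD over chromosomes 3.82), higher on 18 of 19. The rule itself gives hubs a larger part of three-factor regions, a class with a high MyoG share in both kinds of window. By count of three-factor regions, the share at such regions was 88.9% where a window held 1, 91.4% with 2, 94.2% with 3 and 94.8% with 4. Among hubs it did not keep rising. It was 96.2% with 5, 95.9% with 6, 92.2% with 7 (142 of 154 regions) and 91.7% with 8 (22 of 24). In the few windows with 9 or 11, it was 100%.

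The 55 three-factor regions of hubs without MyoG were weak in MyoD. Their median MyoD score was 114, against 648 for those with MyoG. For RUNX1 the medians were 133 and 416, while for c-Jun they were closer, 314 and 374. In percentiles of each list, the regions without MyoG stood at 35.1 for MyoD, 40.4 for RUNX1 and 67.7 for c-Jun. They were thus near or below the middle of the MyoD and RUNX1 lists and well above the middle of the c-Jun list. The MyoD list was divided at its 25, 50 and 75 percentiles. MyoG met 78.3% of the hub regions in the lowest class (83 of 106), then 90.9%, 95.2% and, in the highest, 99.6% (713 of 716). Three-factor regions outside hubs had 69.5%, 83.0%, 92.3% and 98.6% in the same classes. In the 214 hubs with comparison windows the shares were 79%, 90.4%, 95.2% and 99.5%, and in equal-count windows 89.3%, 88.7%, 96.8% and 99.7%. The differences of -10.3, 1.66, -1.59 and -0.137 percentage points were smaller than their SDs over chromosomes, 22.9, 18.97, 10.2 and 2.08. Chromosomes did not follow these signs. In the lowest class hubs lay above on 12 and below on 7, and in the highest above on 7 and below on 3. In the 2 middle classes they lay above on 9 each and below on 10 and 9.

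The number of MyoG peaks in a hub was close to that of windows with as many myoblast peaks. Hubs held 14.5 ± 4.15 (SD, n = 214) MyoG peaks and equal-count windows 14.4. The difference was 0.0411 peaks per window, with an SD of 3.66 over hubs and of 0.852 over chromosomes, and hubs lay higher on 8 chromosomes and lower on 11. Its sign depended on totals with few comparison windows. With at least 10 comparison windows per total (165 hubs, chosen after seeing the data) it was -0.254 (SD over chromosomes 0.881). Of the 214 hubs, 99 (46.3%) lay above the mean of their equal-count windows, and 45.1% of the comparison windows lay above that same mean. The share in hubs was thus near the background. The 14 hubs without comparison windows held 19.7 ± 4.03 MyoG peaks, from 13 to 25.

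**Figure D3:**
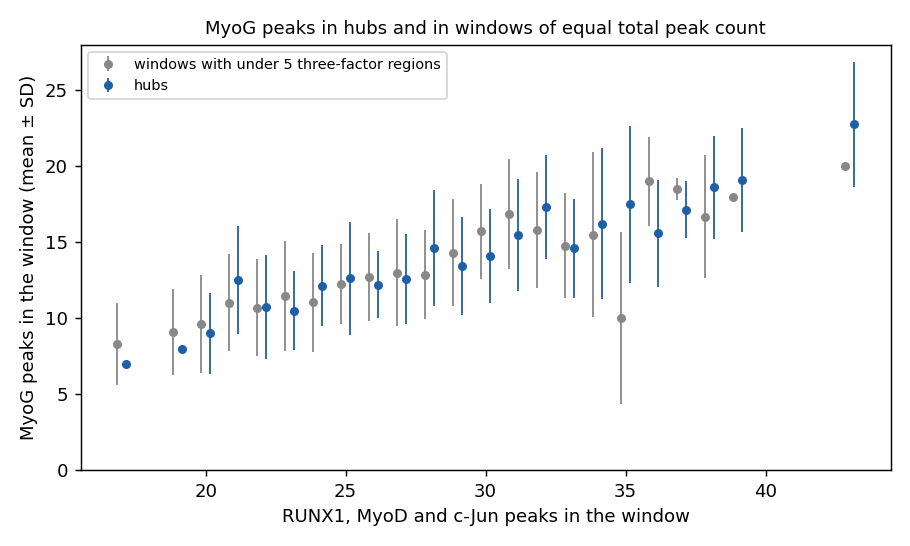
MyoG peaks per 100 kb window (vertical axis, mean with bars of ± SD over windows; no bar where there is 1 window) against the total of myoblast peaks (horizontal axis, count), for hubs (blue) and for windows with under 5 three-factor regions (grey). Both series rise together with the total and their bars overlap at most totals; above 33 peaks the grey means rest on 1 to 5 windows.

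Matching each factor separately also gave a mean difference near 0, with a wider spread. For 96 hubs there were windows with equal numbers of RUNX1, of MyoD and of c-Jun peaks, and the difference in MyoG peaks was -0.00114 (SD over chromosomes 2.45). With equal numbers of merged regions in place of peaks, hubs held 2.88 more MyoG peaks (SD 0.962, 226 hubs). That comparison does not hold the number of peaks equal, and at equal totals hubs had fewer merged regions, 14.2 against 16.3. The peak totals of the windows matched in this way were not compared, and the cause of the difference was not tested.

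MyoG peaks of hubs fell more often on shared sites. Of the MyoG peaks in hubs with comparison windows, 46.0% met a three-factor region, 36.6% met a one- or two-factor region and 17.4% met no myoblast peak. In equal-count windows the shares were 28.6%, 55.4% and 15.99%, the first pair of which follows the difference in region classes that chose the hubs. MyoG peaks on three-factor regions of hubs were strong, with a median score over all such peaks of 705 against 681 in equal-count windows and 560 in all windows outside hubs. With only the highest MyoG score of each region the order was reversed, at 895 in hubs with comparison windows and 951 in equal-count windows. MyoG peaks with no myoblast peak were weak in both, with medians of 98.7 and 107.

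Hubs and windows of equal count had similar numbers of MyoG peaks that met no myoblast factor. Hubs held 2.52 ± 1.86 (SD, n = 214) and equal-count windows 2.31. The difference of 0.217 was smaller than its SD over chromosomes, 0.558, although hubs lay higher on 14 of 19. With totals that had at least 10 comparison windows (165 hubs, chosen after seeing the data) the difference was -0.0962. In 24 of the 228 hubs no such MyoG peak was present, and the highest number was 10.

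Regions in hubs that held 1 or 2 factors met MyoG in the order of their factors. Among the hubs with comparison windows, MyoG was present at 96.1% of regions bound by RUNX1 plus MyoD, 81.0% of those by MyoD plus c-Jun and 74.8% of those by MyoD alone. The share was 43.6% for RUNX1 plus c-Jun, 40.3% for RUNX1 alone and 13.4% for c-Jun alone. Regions with MyoD thus came first, and c-Jun alone came last. In equal-count windows the shares were 96.7%, 81.3%, 79.5%, 44.9%, 35.5% and 13.6% in that order. The widest gaps, -4.70 percentage points for MyoD alone and 4.82 for RUNX1 alone, were smaller than their SDs over chromosomes, 9.15 and 15.4.

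Against all windows outside hubs, the shares in hubs were higher in each class and on most chromosomes. Most differences were smaller than their SD over chromosomes, which counts chromosomes with few and with many hubs alike. For MyoD alone, the share over all hubs was 74.9% against 65.7% outside (difference 9.23, SD over chromosomes 8.39), higher on 16 of 19 chromosomes. For c-Jun alone it was 14.01% against 7.20% (6.80, SD 12.1), higher on 14 of 19. For MyoD with c-Jun it was 80.4% against 67.7% (12.7, SD 13.7), higher on 15 of 19. The difference for RUNX1 with MyoD was 1.83 (SD 5.35), higher on 12 of 18. For RUNX1 with c-Jun it was 11.1 (SD 14.8) and for RUNX1 alone 10.6 (SD 14.9), each higher on 15 of 19. The equal-count windows had shares close to those of hubs in each class. Taking all one- and two-factor regions together, MyoG met 57.7% in hubs and 58.9% in equal-count windows (difference -1.24 percentage points, SD over chromosomes 5.29).

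**Figure D4:**
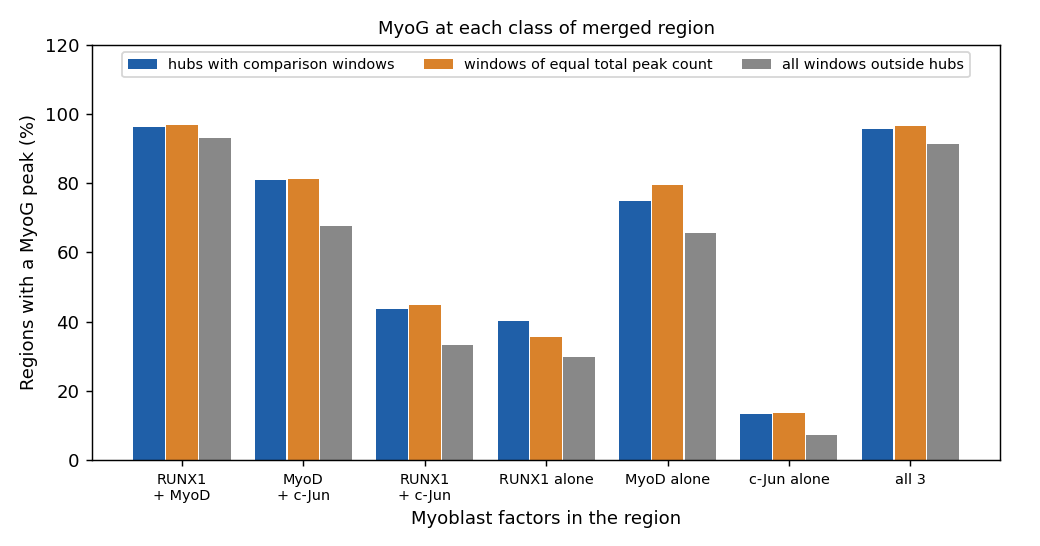
Percent of merged regions that met a MyoG peak (vertical axis) for each combination of RUNX1, MyoD and c-Jun (horizontal axis), in the 214 hubs with comparison windows (blue), in windows of equal total peak count (orange) and in all windows outside hubs (grey). Blue and orange bars lie close in each class, at 13.4% and 13.6% for c-Jun alone, while the grey bars are lower.

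Across the 228 hubs, the number of MyoG peaks followed the number of MyoD peaks about as closely as the total of myoblast peaks. Pearson's r was 0.67 (Spearman's rho 0.62) with MyoD peaks, 0.65 (0.62) with the total, 0.55 (0.53) with merged regions, 0.55 (0.50) with RUNX1 peaks and 0.26 (0.27) with c-Jun peaks. With the count of three-factor regions it was 0.35 (0.35). These are descriptions over windows of the same 4 lists, which share the crowding of peaks along the genome. Among the 3 factors, MyoD had the highest value and c-Jun the lowest.

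The hub chr4:32400001-32500000 had the fewest MyoG peaks relative to equal-count windows, 4, beside 6 RUNX1, 8 MyoD and 9 c-Jun peaks. The mean of 93 equal-count windows was 11.4, and 0 of its 6 one- and two-factor regions met MyoG, against 4 of its 5 three-factor regions. The hubs chr10:82600001-82700000 and chr4:59200001-59300000 held 6 and 8 MyoG peaks, against 12.3 and 15.7. In both, 2 of the one- and two-factor regions met MyoG, out of 8 and 11, while 4 of 5 and 5 of 6 three-factor regions did. These 3 hubs were picked for few MyoG peaks, and over all hubs with comparison windows MyoG met 57.7% of one- and two-factor regions and 95.7% of three-factor regions.

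At the high end, chr17:31900001-32000000 held 25 MyoG peaks with 13 RUNX1, 16 MyoD and 6 c-Jun peaks, and 7 of the 25 met no myoblast peak. The hubs chr8:123000001-123100000 and chr4:45400001-45500000 held 21 and 18. All 3 had a total of 35, for which only 2 comparison windows existed, with a mean of 10, so their rank rests on those 2 windows. The other hubs with a total of 35 are measured against the same pair.

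Over all peaks of a list, those in hubs ranked higher than those in windows of equal count, by about the spread between chromosomes or less. For MyoD the median percentile within its list was 64.1 in hubs with comparison windows and 55.6 in equal-count windows, higher on 14 of 19 chromosomes. For RUNX1 the medians were 58.4 and 51.7 (15 of 19) and for c-Jun 62.2 and 57.2 (14 of 19). MyoG, the list that the rule did not use, showed 63.3 and 58.1 (15 of 19). The SDs of the difference over chromosomes, 6.99 for RUNX1, 8.83 for MyoD, 8.74 for c-Jun and 6.66 for MyoG, exceeded the differences, 2 of them only slightly.

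The three-factor regions themselves ranked close to those of equally crowded windows. Their median percentiles were 79.7 for MyoD, 71.2 for RUNX1 and 72.2 for c-Jun in hubs with comparison windows, against 78.9, 73.2 and 74.7. The strongest MyoG peak on them stood at 85.6 against 86.7. All were above the values of windows with 1 three-factor region, which were 72.4, 63.2, 67.4 and, for MyoG, 77.7. Three-factor regions ranked above the peaks of a hub as a whole, and the rule fixed their larger share in hubs; the part of this in the ranks over all peaks was not tested.

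Which factor led differed from site to site. Over the 1276 three-factor regions of all hubs, MyoD had the highest percentile in 528 (41.4%), c-Jun in 390 (30.6%) and RUNX1 in 358 (28.1%). Outside hubs these shares were 39.9%, 31.0% and 29.1%. All 3 factors were in the upper 50% of their lists in 583 regions (45.7%), against 36.2% outside hubs and 46.8% in equal-count windows. The lists are ranked separately, so a lead compares ranks and not amounts of bound factor.

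Most shared sites in hubs were simple in form. In 1041 of 1276 (81.6%), 1 peak of each factor made up the region, against 76.9% in equal-count windows and 87.7% outside hubs. The median width was 1677 bp (quartiles 1318 and 2238 bp), against 1652 bp in equal-count windows and 1490 bp outside hubs. The centres of the strongest peaks of the 3 factors lay within a median span of 263 bp, and within 150 bp in 368 regions (28.8%), against 26.9% in equal-count windows and 33.4% outside hubs. From MyoD to the MyoG peak of myotubes the median distance was 69 bp, and from RUNX1 and from c-Jun it was 134 and 147 bp. In equal-count windows these distances were 65.4, 159 and 150 bp, and outside hubs 61, 109 and 126 bp.

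Hubs lay next to other hubs more often than windows in general did, and about as often as equally crowded windows. Of the 228, 26 (11.4%) had an adjacent hub, against 2.72% of all windows with a myoblast peak. Among hubs with comparison windows the share was 11.2%, and 13.0% of equal-count windows lay next to a hub. Within 10 windows, 107 hubs (46.9%) had another hub, against 19.2% of all windows with a myoblast peak and 47.6% of equal-count windows. The nearest hub on the chromosome was a median of 13.5 windows away. The 26 adjacent hubs formed 11 runs, of which 8 were pairs. The longest run, chr8:122700001-123100000, joined 4 hubs with 22 three-factor regions, 132 peaks of the 3 factors and 78 MyoG peaks. A second run on the same chromosome, chr8:124400001-124700000, joined 3 hubs with 15 three-factor regions. A run of 3 on chromosome 13, chr13:100000001-100300000, held 16 three-factor regions and 107 peaks of the 3 factors with 39 MyoG peaks, fewer per myoblast peak than on chromosome 8.

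Windows beside a hub held fewer three-factor regions than the hub itself, a drop that the rule builds in. The mean was 5.50 in the hub, 1.66 and 1.57 in the windows before and after it, and 1.14 and 1.15 in the next ones. At 500 kb it was 1.09 and 0.995. For equal-count windows, the mean was 3.23 in the window and 1.74 and 1.86 in those before and after it. The 2 adjacent windows together held 3.22 ± 2.23 (SD, n = 214) three-factor regions, against 3.60 beside equal-count windows, a difference of -0.376 (SD over chromosomes 0.912), lower on 15 of 19 chromosomes. They also held fewer peaks of the 3 factors, 30.6 against 33.4, lower on 16 of 19. In 19 hubs (8.33%) neither adjacent window held a three-factor region.

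**Figure D5:**
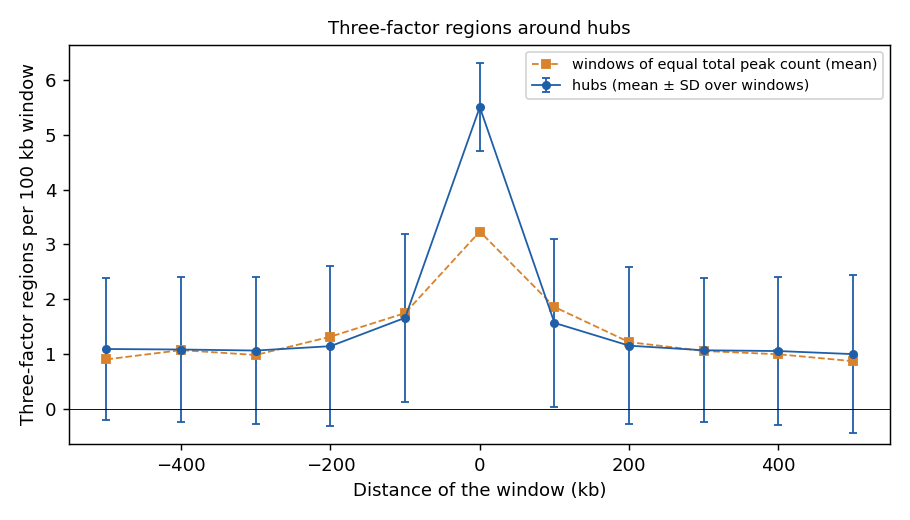
Mean number of three-factor regions per 100 kb window (vertical axis) by distance of the window from a hub in kb (horizontal axis); blue points are the 214 hubs with bars of ± SD over windows, and orange squares are windows of equal total peak count. The blue mean falls from 5.50 at the hub to 1.66 and 1.57 in the adjacent windows, next to orange values of 1.74 and 1.86. The central value is the count that the rule used, so the fall from it is built in.

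Membership depended on where the windows began and on what counted as a shared site. On a grid moved by 50 kb, 219 windows held 5 or more three-factor regions. Of the 228 hubs, 139 overlapped one of these and 89 overlapped none, and 593 (46.5%) of the three-factor regions in hubs were in a hub on both grids. With 1 base covered by all 3 factors, 203 windows were hubs, all among the 228. In the stronger 50% of each list, 15 windows were, all of them among the 228. These 15 included chr16:92900001-93000000 with 7 three-factor regions, chr17:26700001-26800000 with 6 and chr1:184400001-184500000 with 6, and the other 12 held 5. The hub with 11 on chromosome 2 was not among them.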

How the data were processed

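The authors deposited 1 peak list per factor (RUNX1, MyoD, c-Jun, MyoG) on mm9. Each peak has a name beginning with MACS and a score that the authors' peak caller wrote, per the files themselves. CASAVA 1.7.0 and 1.8.2 and Bowtie are named in the submitters' processing notes. The MACS version, settings, control and handling of replicates were not given in the sources used here. Chromosomes X and Y were left out, with 555 peaks of RUNX1, 750 of MyoD, 654 of c-Jun and 965 of MyoG. Overlapping peaks were merged (81714 regions, 11449 with all 3 factors), and regions and peaks were assigned to windows of 100 kb by their centres. Comparison windows had the same total of RUNX1, MyoD and c-Jun peaks. Replicate numbers could not pair anything, since the lists hold none. Merging, overlap and matching were checked on simulated data. The members, lists and rules were chosen with earlier results of these data known. Named windows were those with 8 or more three-factor regions, runs of 3 or more hubs, and the 3 hubs with the fewest MyoG peaks, the most MyoG peaks (both relative to equal-count windows) or the lowest total. Outside that rule, the most compact hub and those left in the stronger 50% of each list were named with their values known. Genes, promoters, sequences and motifs were not analysed here, since the reference tables are of a later build. Python 3.11.15, numpy 2.4.6, pandas 2.3.3 and matplotlib 3.10.9 were used.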

Additional observations from a re-analysis of the deposited data

How the results depend on the processing

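Of 84 alternatives to the 6 results, 67 moved the value by less than its SD over chromosomes (for the number of hubs, by under 1.5 times) and 17 by more. Some of the 67 could move little: adding chromosome X brought in 0 hubs, and leaving out 1 long stretch of MyoD peaks kept all 228. Others changed sign within the SD. The difference in MyoG peaks was -0.799 in the stronger 50%, and that in MyoG peaks meeting no myoblast peak was -0.244 without ceiling-score and widest peaks. The number of hubs, 228, was 15 in the stronger 50% of each list, 23 with 200 bp around each peak centre, 113 without ceiling-score peaks and the widest 1%, 519 at 4 or more regions, 30 at 7 or more, 700 for windows of 50 kb with 3 or more, and 41 for windows of 200 kb with 9 or more. The difference in MyoG peaks between hubs and equal-count windows, 0.0411, was -1.77 with 200 bp peaks, 1.47 in windows of 200 kb, 2.88 at equal numbers of merged regions and -0.830 without ceiling-score and widest peaks. For MyoG peaks that met no myoblast peak, the difference of 0.217 was -0.632 in the stronger 50%, -0.865 with 200 bp peaks and 0.830 at 7 or more regions. The difference in MyoG share at one- and two-factor regions, -1.24 percentage points, was 6.15 in windows of 200 kb. That in three-factor regions of adjacent windows, -0.376, was -1.58 in windows of 200 kb and -1.37 at 7 or more regions. The causes were not tested. The difference in MyoG share at three-factor regions inside and outside hubs stayed above 0 in all 12 alternatives run, between 1.60 and 4.38 percentage points. Its SD over chromosomes exceeded it with 200 bp peaks (1.60, SD 10.9), at 7 or more regions (1.95, SD 9.82), without ceiling-score and widest peaks (3.40, SD 9.58), in windows of 200 kb (3.18, SD 7.29) and in the stronger 50% (4.38, SD 6.40). This difference is against all windows outside hubs, not against equally crowded ones. Beside equal-count windows it was -0.815 (SD over chromosomes 3.45), and that comparison was not run under the alternatives. Totals with at least 10 comparison windows were the only alternative chosen after seeing the data. No paired analysis was possible because each factor has 1 list without replicate columns; for that reason no fit without 1 of the replicates was run. Depth is unknown, so a missing peak does not show that a factor was absent.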

Other observations

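On chromosome X, which the rule leaves out, 84 three-factor regions lay in 72 windows. The highest count in a window was 4, so 0 windows reached the hub threshold there.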
